A study of Homo sapiens with 10 samples.

Results

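The question was whether excess p300 alters the size of the response to dexamethasone in A549 cells, an established human lung adenocarcinoma line. For each gene, the log2 difference in counts per 1e+06 counts (CPM) between dexamethasone and vehicle in P300 cells was set against the same difference in GFP cells of the same replicate number. This difference of differences is called the interaction here, and a negative value means that the dexamethasone difference was lower in P300 cells. Genes were included if they reached 10 CPM in all 8 libraries of replicate numbers 1 and 2, which 6455 of 25538 genes did. These genes are called members. Just inside the limit are FASTK and TEX264, with 10.03 CPM in their lowest library, and just outside are HS2ST1 and TMX3 with 9.98 CPM. Another 580 genes reached 10 CPM in 7 of the libraries but not in the shallow P300 EtOH library of number 2.

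All cells were A549, transfected with 1 ug of a plasmid for GFP alone (GFP) or for EP300 joined in frame to GFP (P300), and kept in charcoal-stripped serum. After 48 h they were given ethanol (EtOH) or 100 nM dexamethasone (Dex) for 1 h, fixed in ethanol and sorted for GFP. Expression was transient and came on top of the cells' own EP300, and the counts do not separate vector transcripts from those of the cell's gene. GFP cells gave 3 libraries with each treatment and P300 cells gave 2, so that GFP number 3 has no P300 partner and was not used to choose the members. The labels do not tie replicates to separate cultures, and the spread between them may be technical.

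Dexamethasone is a synthetic glucocorticoid. It binds the glucocorticoid receptor, NR3C1, which then enters the nucleus, binds DNA and raises the transcription of genes such as those for feedback inhibitors of inflammation, while it lowers that of many genes driven by AP-1 and NF-kappaB. p300 and its paralog CREBBP are histone acetyltransferases and coactivators that the receptor, AP-1, NF-kappaB and many other factors share. A 1 h treatment reads early, mostly direct, transcription.

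Libraries differed in ways that touch every value below. EP300 took 0.0271% to 0.0386% of the counts in GFP libraries, and 28.6% and 28.8% in the P300 EtOH and Dex libraries of number 1 but 13.4% and 2.42% in those of number 2. The Dex comparison in P300 cells of number 2 is therefore also a comparison of unequal EP300 levels. Total counts were 2278717 in P300 EtOH number 2 and 9215550 to 13122367 in the other 9. Ribosomal RNA genes, those encoded by mitochondria included, took 4.24% and 5.32% in the GFP libraries of number 2, against 0.493% to 1.77% in the other 8. The 9 A549 epithelial markers summed to 16884 to 24529 CPM in the GFP libraries of numbers 1 and 2 and to 7350 to 26185 CPM in P300, with EPCAM, one of them, low throughout. Leukocyte, endothelial, fibroblast and erythroid markers summed to at most 7.85, 22.4, 71.1 and 4.45 CPM, the highest in P300 libraries for each. The part of these differences in the results was not tested.

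The 29 glucocorticoid-induced members had median log2 Dex differences of 0.54 to 0.93 in the 3 GFP pairs, 0.88 in the P300 pair of number 2 and 0.26 in that of number 1, and no member's interaction passed the test. SGK1, a kinase that regulates sodium transport, had nearly the same Dex and EtOH level in P300 cells of both numbers. FOSB and LIF were at lower levels with Dex in every GFP pair but not in P300 cells. SGK1 and FOSB were picked for their extreme interactions, and LIF after its values were seen. Relative to the median member, 322 members (4.99%) were lower with Dex in all GFP pairs and higher in both P300 pairs. The reverse was true of 325 (5.03%). edgeR's quasi-likelihood test on the 8 libraries called 0 of 19063 tested genes at an adjusted p under 0.05 for the interaction (0.00%), and likewise for Dex in GFP (0.00%) and Dex in P300 (0.00%). All 3 comparisons share an estimate of the spread over GFP and P300 libraries together. Estimated over members in each construct apart, edgeR's common dispersion, a measure of spread, was 0.0609 in GFP and 0.199 in P300 cells. The test of Dex in GFP therefore also carries the P300 spread, and 0 calls there do not show an absent response. Unadjusted p-values under 0.05 were found for 21, 16 and 106 members in these 3 comparisons (0.325%, 0.248% and 1.64%), beside 723, 27 and 1415 of all tested genes (3.79%, 0.142% and 7.42%), and limma-voom called 0 genes in each. With DESeq2, Dex against EtOH in P300 cells gave calls for 60 of 19063 tested genes. Among these were 2 of the 6455 members, NSMCE4A and ATPIF1. Its interaction test and its test in GFP cells each gave 0 calls. The values below are therefore descriptions, and fewer cells and less RNA per cell cannot be told apart in them.

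The 2 replicate numbers gave interactions of different width and with little in common. The SD over members was 0.43 in number 1 and 0.90 in number 2 on the log2 scale, while counting error alone had a median SE of 0.12 and 0.17. For scale, the Dex difference in GFP pair 1 minus that in GFP pair 2, pair 1 minus pair 3 and pair 2 minus pair 3 had SDs of 0.37, 0.19 and 0.33, and P300 pair 1 minus pair 2 had 0.88. All interactions below are given minus the median over members in their number, which was -0.02 and 0.13, and Dex differences minus the median member of their pair, so that no scaling of libraries affects them. Across members the interactions of the 2 numbers had r = 0.07, a description over genes that share libraries. On the same side of the median in both numbers were 52.3% of members (3376 of 6455), 1688 above and 1688 below. That is 26.2% each way, beside 25.6% each way of all tested genes. The 95% Clopper-Pearson interval, 51.1% to 53.5%, treats members as independent, though they share libraries, and holds no spread between replicates. The share was 49.4% with the GC correction described below and 49.7% with GFP pair 3 as the reference, both outside that interval.

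**Figure D1:**
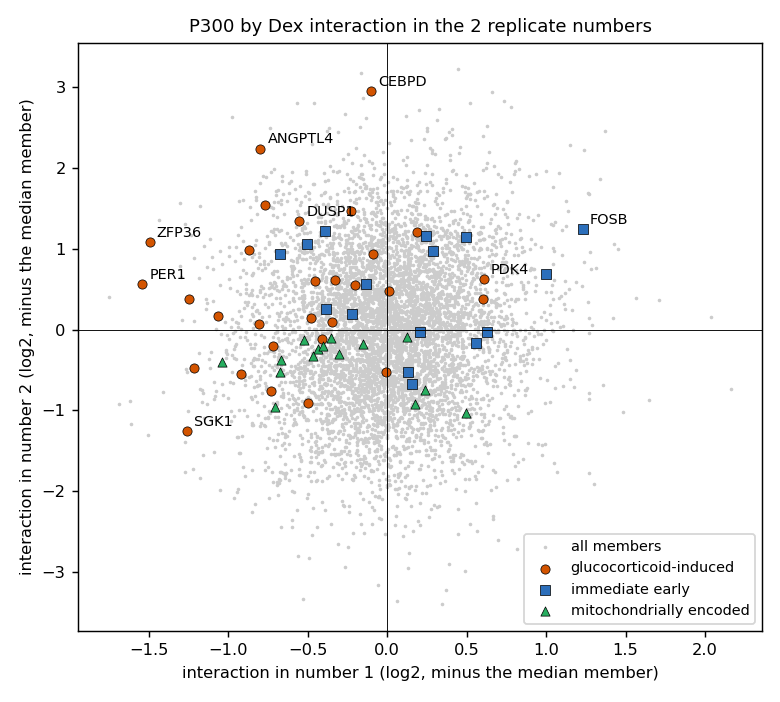
P300 by Dex interaction of each member in replicate number 1 (x axis) and number 2 (y axis), as log2 CPM differences minus the median member, with 3 gene lists marked. Points spread more widely on the y axis than on the x axis, SGK1 lies at -1.26 and -1.26, and glucocorticoid-induced members lie mostly left of 0 but above and below 0 on the y axis.

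Dex-responsive members could be picked without the libraries of the rule, from GFP pair 3 alone, with a 1.5-fold limit chosen after the data had been seen. In that pair 51 members were at least 1.5-fold higher and 50 at least 1.5-fold lower with Dex than the median member. The 51 higher ones had a median log2 Dex difference of 0.84 in GFP pair 1 and 0.64 in GFP pair 2. In P300 cells the median was 0.23 in number 1 and 0.71 in number 2. Of the 51, 38 and 30 passed 1.5-fold again in GFP pairs 1 and 2, and 8 and 29 did in P300 pairs 1 and 2. Among the 6354 members within 1.5-fold in GFP pair 3, 47 and 266 passed it upward in GFP pairs 1 and 2. In P300 pairs 1 and 2, 485 and 1388 of these 6354 did, so the counts of the pairs have unlike backgrounds.

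The 50 lower members showed the same split between the numbers. Their median was -0.49 and -0.76 in GFP pairs 1 and 2, and -0.04 and -0.76 in P300 pairs 1 and 2. Against the GFP pair of the same number, the median interaction was -0.63 and 0.09 for the 51 higher members and 0.42 and 0.07 for the 50 lower ones, where both sets are near 0 in number 2. A line through the 101 members on GFP pair 3 had a slope of 0.83 in GFP pair 1, 0.81 in GFP pair 2, 0.24 in P300 pair 1 and 0.84 in P300 pair 2. Below the median interaction in both numbers were 21 of the 51 (41.2%) and above it 3, and above it in both were 24 of the 50 (48.0%) and below it 4, beside 26.2% each way of all members. EP300 took 28.8% of counts in the Dex library of number 1 and 2.42% in that of number 2, and the EP300 level and the replicate number cannot be told apart.

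**Figure D2:**
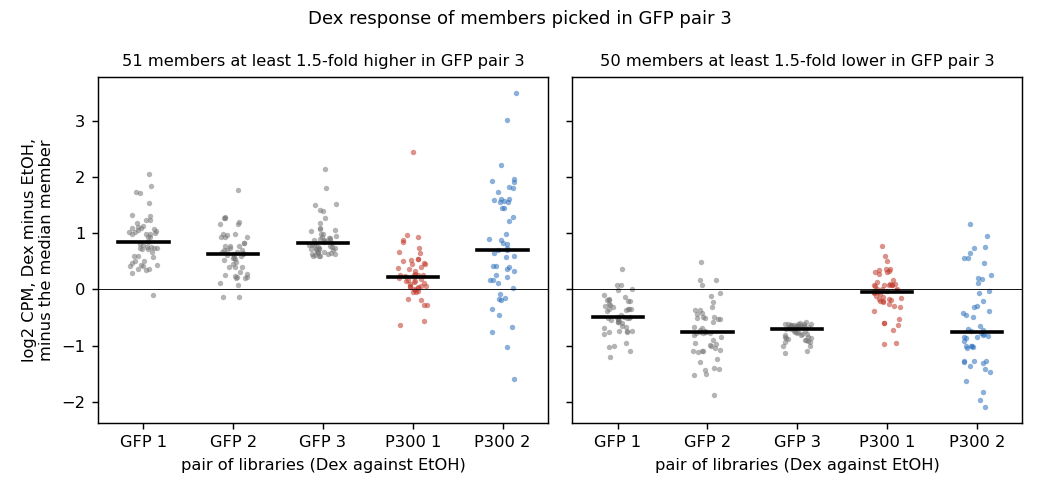
Log2 CPM in Dex minus EtOH, minus the median member, in each pair of libraries for the 51 members at least 1.5-fold higher (left) and the 50 at least 1.5-fold lower (right) in GFP pair 3; each point is a member and the black bar the median. The medians in P300 pair 1 are 0.23 and -0.04, nearer 0 than in any other pair, while those in P300 pair 2 are 0.71 and -0.76.

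Promoters are shown for 3 members on which the results turn: SGK1, whose Dex difference was near 0 in both P300 pairs, PDK4, whose Dex difference was larger in both P300 pairs than in the GFP pair of the same number, and FOSB, whose Dex difference was below 0 in all GFP pairs and above 0 in both P300 pairs. Each is 250 bases before to 50 after a RefSeq start in GRCh38.p14, which is not the build of the counts, and SGK1 has 3 such windows of which 1 is printed. Capitals mark AGAACA, a glucocorticoid receptor half-site, and TGACG, a half-site of the cyclic AMP response element that CREB binds, on either strand.
SGK1 (chr6:134174817-134175116, minus strand): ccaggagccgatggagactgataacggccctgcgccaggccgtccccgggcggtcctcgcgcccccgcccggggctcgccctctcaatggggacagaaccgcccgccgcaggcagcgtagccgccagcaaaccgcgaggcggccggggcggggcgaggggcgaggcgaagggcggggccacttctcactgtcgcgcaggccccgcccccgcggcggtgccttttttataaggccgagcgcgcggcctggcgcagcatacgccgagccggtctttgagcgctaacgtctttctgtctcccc
PDK4 (chr7:95596467-95596766, minus strand): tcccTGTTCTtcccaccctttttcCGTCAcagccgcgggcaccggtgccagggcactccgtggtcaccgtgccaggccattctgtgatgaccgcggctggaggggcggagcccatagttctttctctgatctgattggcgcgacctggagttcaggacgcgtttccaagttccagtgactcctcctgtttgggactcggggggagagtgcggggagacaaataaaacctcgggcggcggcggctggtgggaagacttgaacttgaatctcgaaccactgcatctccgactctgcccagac
FOSB (chr19:45467746-45468045, plus strand): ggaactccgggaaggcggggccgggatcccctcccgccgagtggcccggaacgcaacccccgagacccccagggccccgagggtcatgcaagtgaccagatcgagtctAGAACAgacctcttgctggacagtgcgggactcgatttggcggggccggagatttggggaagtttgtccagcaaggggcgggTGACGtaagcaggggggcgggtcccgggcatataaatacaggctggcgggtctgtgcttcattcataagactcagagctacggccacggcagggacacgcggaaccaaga

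The window of PDK4 and that of FOSB hold both motifs and the SGK1 window printed holds neither. That of PER1, an induced member whose window is not printed, also holds neither. AGAACA was in 14.8% of all 35116 windows and in 12.5% of the 5012 matched members. It was in 5 of the 40 matched members higher in GFP pair 3 and in 6 of the 38 lower ones. TGACG was in 24.6% of windows, 41.8% of the 5012 matched members, and 14 of those 40 and 13 of those 38. These matches are of letters and show no binding.

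Among glucocorticoid-induced genes, 29 of a list of 48 are members, while FKBP5 and TSC22D3, 2 classical targets, are not, since their lowest library held 6.34 and 8.80 CPM. The list's median Dex difference was 0.93, 0.54 and 0.89 in GFP pairs 1, 2 and 3, and 0.26 and 0.88 in P300 pairs 1 and 2. Its median interaction was -0.50 in number 1 and 0.47 in number 2. Of the 29, 4 were above the median of members in both numbers (13.8%) and 8 below (27.6%), beside 26.2% each way of all members, and 25 and 8 lay below it in number 1 and number 2. The median over the mean of both numbers was -0.13, and it lay above 0 when any library of number 1 was left out (0.05 to 0.18). With GFP pair 3 as the reference in both numbers, a choice made after seeing the data, the medians were -0.46 and 0.17. None of the 29 passed the test.

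**Figure D3:**
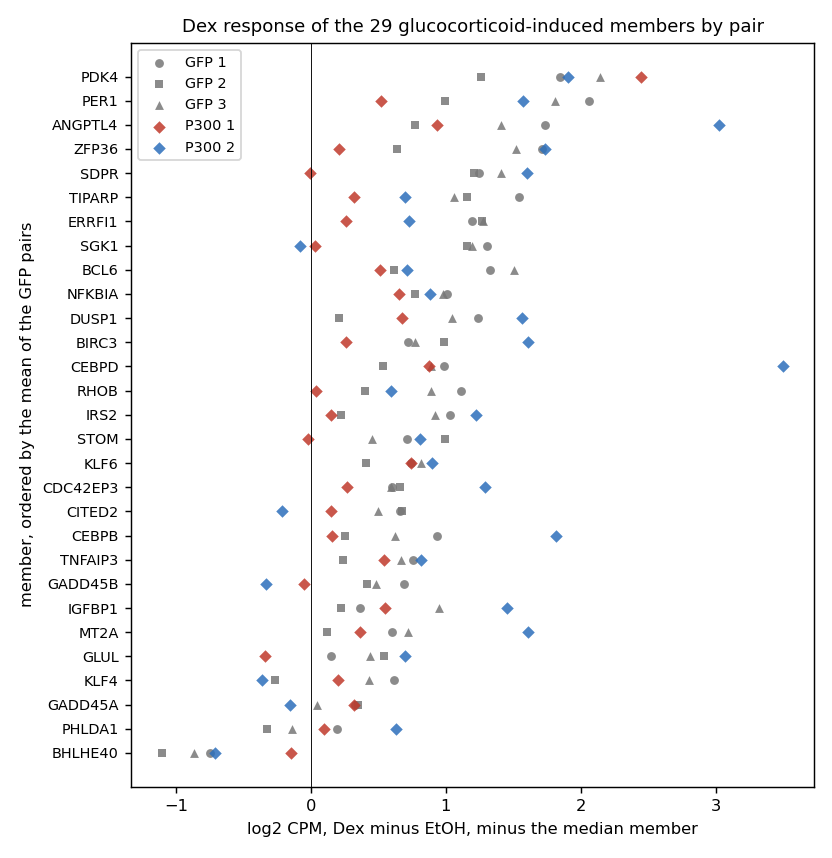
Log2 CPM in Dex minus EtOH, minus the median member, of the 29 glucocorticoid-induced members in 3 GFP pairs (grey) and P300 pairs 1 (red) and 2 (blue), ordered by the mean of the GFP pairs. The interaction in number 1 was below the median for 25 of them, and blue points spread from -0.71 for BHLHE40 to 3.50 for CEBPD.

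SGK1 had the largest distance among induced members below the median in both numbers, ranked by the smaller of its 2 values, while PER1 and ZFP36 lay farther below in number 1 alone. It stood at 60.4, 54.5 and 61.5 CPM in the GFP EtOH libraries of numbers 1, 2 and 3 and 149, 125 and 139 CPM after Dex, and in P300 cells at 124 and 60.6 CPM in EtOH and 125 and 63.5 CPM in Dex of numbers 1 and 2. Every GFP Dex library was above every GFP EtOH library, and in P300 cells Dex and EtOH were nearly equal within each number. The P300 EtOH level was just below the lowest GFP Dex level in number 1 and near the GFP EtOH levels in number 2. Its Dex difference was 1.30, 1.16 and 1.19 in GFP cells and 0.03 and -0.08 in P300 cells. edgeR gave an interaction of -1.23 ± 0.74 (SE), with an unadjusted p of 0.128 and an adjusted p of 1. The mean interaction of -1.26 ranged from -1.93 to -0.59 with each library left out.

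GADD45B, a stress sensor that binds MAP kinase kinases, and CITED2, which binds p300 and CREBBP, had the same pattern at smaller size. GADD45B was at 46.5, 54.0 and 42.1 CPM with EtOH and 74.9, 74.0 and 58.4 CPM with Dex in GFP cells, and at 84.2 and 79.0 CPM with EtOH and 80.5 and 69.8 CPM with Dex in P300 cells. Its Dex difference was 0.69, 0.42 and 0.48 in GFP and -0.05 and -0.33 in P300 cells. For CITED2 the differences were 0.66, 0.68 and 0.50 in GFP and 0.15 and -0.21 in P300 cells. Both had Dex below EtOH, relative to the median member, in P300 pair 2.

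Induced members that inhibit signalling or cytokine output include the following 6, a selection. ERRFI1, which inhibits the EGF receptor, was at 163, 140.2 and 139 CPM with EtOH and 371, 346 and 334 CPM with Dex in GFP cells, and at 154 and 118 CPM with EtOH and 182 and 217 CPM with Dex in P300 cells, and its interaction was -0.92 and -0.55 in numbers 1 and 2. TIPARP, an ADP-ribosyltransferase that restrains the aryl hydrocarbon receptor, had -1.21 and -0.48. ZFP36, which destabilises cytokine mRNAs, was at 93.4, 261 and 106 CPM with EtOH and 305, 416 and 302 CPM with Dex in GFP cells, and at 129.8 and 169 CPM with EtOH and 148 and 622 CPM with Dex in P300 cells. Its Dex difference of 0.21 in P300 pair 1 lay below all GFP pairs, and that of 1.73 in P300 pair 2 above all of them. DUSP1, a phosphatase of MAP kinases, had interactions of -0.55 and 1.34, TNFAIP3, which limits NF-kappaB signalling, -0.20 and 0.56, and NFKBIA, the inhibitor of NF-kappaB, -0.35 and 0.09. The separate list of MAP kinase and EGF receptor feedback genes has 11 members of 17. Its medians had the opposite signs, 0.13 in number 1 and -0.42 in number 2. Of the 11, 2 were above the median in both numbers (18.2%) and 3 below (27.3%), beside 26.2% each way of all members. SOCS3, a suppressor of cytokine signalling in that list, had 0.27 and -0.51.

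Transcription factors of the list had interactions of opposite signs in the 2 numbers for some and of the same sign for others. PER1, a clock repressor, was at 36.4, 96.7 and 42.5 CPM with EtOH and 152, 197 and 148 CPM with Dex in GFP cells, and at 77.7 and 89.5 CPM with EtOH and 109.8 and 296 CPM with Dex in P300 cells, with interactions of -1.54 and 0.56. CEBPD, a C/EBP factor of the acute phase response, was at 51.4, 109 and 49.97 CPM with EtOH and 102, 162 and 92.0 CPM with Dex in GFP cells, and at 18.2 and 30.7 CPM with EtOH and 32.9 and 386 CPM with Dex in P300 cells. The P300 Dex library of number 2 was the highest of its 10 libraries, and the EtOH library it is set against is the shallow one. The interaction of CEBPD was -0.10 and 2.95, that of CEBPB -0.77 and 1.55, that of BCL6, a repressor, -0.81 and 0.07 and that of KLF6 0.01 and 0.47. BHLHE40, another clock repressor listed as induced, had Dex differences of -0.74, -1.10 and -0.87 in GFP cells, below 0 in all 3, and interactions of 0.60 and 0.38. KLF4 had -0.41 and -0.11.

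PDK4, a kinase that inhibits pyruvate dehydrogenase, was one of 4 induced members with an interaction above the median in both numbers. It was at 64.3, 119 and 47.8 CPM with EtOH and 230.4, 293 and 209.9 CPM with Dex in GFP cells, and at 12.2 and 61.4 CPM with EtOH and 65.6 and 256 CPM with Dex in P300 cells. Its Dex difference was 1.84, 1.26 and 2.14 in GFP and 2.44 and 1.91 in P300 cells, so that P300 pair 1 lay above all GFP pairs and P300 pair 2 within their range. edgeR gave 0.61 ± 1.01 (SE), with an unadjusted p of 0.561 and an adjusted p of 1. Its mean interaction of 0.62 was 0.03 with GFP pair 3 as the reference, and it lay below 0 without the P300 EtOH library of number 1 (-0.44) or the P300 Dex library of number 2 (-0.18) and reached 1.71 without the P300 EtOH library of number 2. ANGPTL4, an inhibitor of lipoprotein lipase, had Dex differences of 1.74, 0.77 and 1.41 in GFP and 0.93 and 3.03 in P300 cells, and IRS2, an insulin receptor substrate, 1.03, 0.22 and 0.92 and 0.15 and 1.23.

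**Figure D4:**
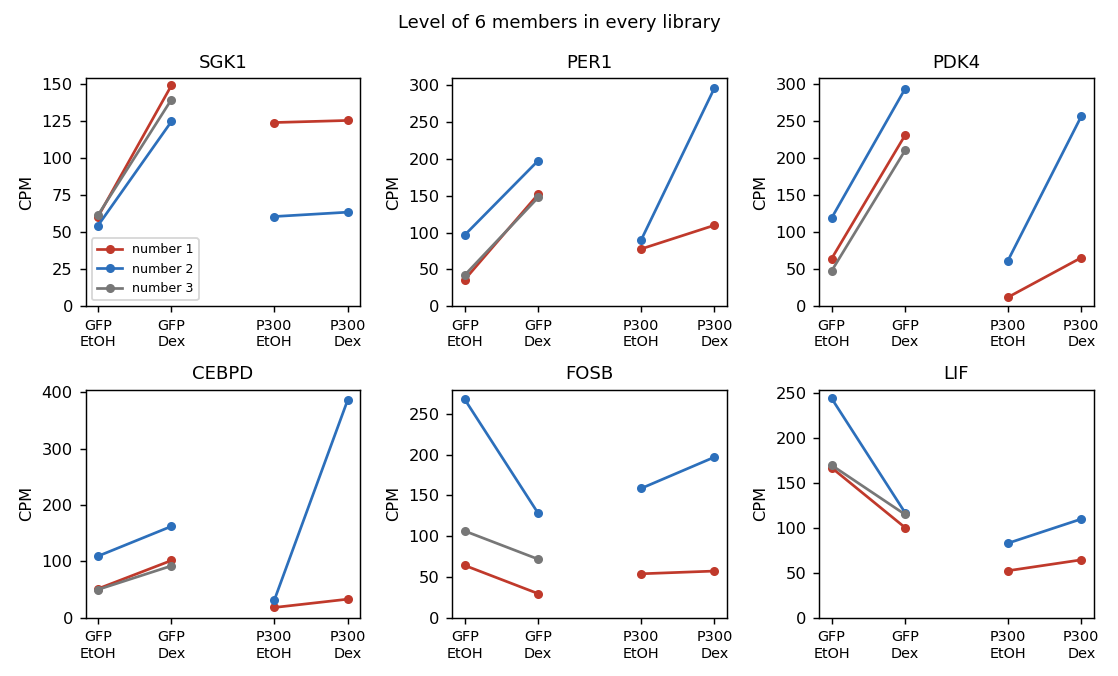
CPM (linear axes from 0) of 6 members in every library, each line joining EtOH and Dex of a replicate number. For SGK1 the P300 lines are nearly flat, and for FOSB and LIF the GFP lines go down with Dex while the P300 lines do not.

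Immediate early genes, the first to answer growth factors and stress, had lower levels with Dex in GFP cells by their median. Of 23 immediate early genes, 16 are members, with median Dex differences of -0.17, -0.79 and -0.49 in GFP cells and -0.04 and -0.10 in P300 cells. Their median interaction was 0.18 and 0.63, with 5 above the median in both numbers (31.3%, beside 26.2% of all members) and 0 below. EGR1 had interactions of -0.14 and 0.56 and NR4A1, an orphan nuclear receptor, -0.39 and 1.22, both below 0 in number 1. Of 40 repressed genes, 23 are members, with median Dex differences of 0.04, -0.41 and -0.23 in GFP and 0.16 and -0.33 in P300 cells. Their median interactions were 0.14 and 0.24, with 11 above in both numbers (47.8%) and 3 below (13.0%), beside 26.2% each way of all members. All these lists share the GFP libraries, and their members were not called.

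FOSB, an AP-1 subunit, lay above 1 log2 unit in both numbers. It stood at 64.1, 267 and 106 CPM in the GFP EtOH libraries of numbers 1, 2 and 3 and 29.5, 128 and 71.7 CPM after Dex, and in P300 cells at 53.8 and 158 CPM in EtOH and 57.2 and 197 CPM in Dex of numbers 1 and 2. GFP Dex was below GFP EtOH in each number, and P300 Dex above P300 EtOH in both. The interaction was 1.23 and 1.25, and edgeR gave 1.31 ± 1.22 (SE), with an unadjusted p of 0.306 and an adjusted p of 1. The mean interaction of 1.24 was 0.13 without the GFP Dex library of number 1, 0.14 without the GFP EtOH library of number 2 and 0.69 with GFP pair 3 as the reference, and it was 2.34 without the GFP Dex library of number 2. Of the other AP-1 subunits, FOS and FOSL1 named after their values were seen, JUNB had interactions of 0.29 and 0.97, JUN 0.56 and -0.17, FOS 0.24 and 1.16 and FOSL1 0.16 and -0.67, while FOSL2 had -0.39 and 0.26.

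LIF, a cytokine of the interleukin-6 family, and MAFK, a small MAF factor that pairs with NRF2, behaved like FOSB; LIF, ELF3, IER2 and EID3 are named here after their values were seen. LIF was at 167, 244 and 169.8 CPM with EtOH and 100.4, 117 and 115 CPM with Dex in GFP cells, and at 52.3 and 82.9 CPM with EtOH and 64.4 and 109.9 CPM with Dex in P300 cells. MAFK was at 95.4, 165 and 84.0 CPM with EtOH and 60.03, 99.6 and 54.3 CPM with Dex in GFP cells, and at 43.4 and 64.1 CPM with EtOH and 64.7 and 137 CPM with Dex in P300 cells. Both were lower with Dex in all 3 GFP pairs and higher in both P300 pairs relative to the median member, and the P300 EtOH libraries of both genes were below all GFP EtOH libraries. Interactions were 1.06 and 1.34 for LIF, 1.27 and 1.69 for MAFK, 1.03 and 0.47 for ELF3, an epithelial ETS factor, 1.00 and 0.69 for IER2 and 0.76 and 1.31 for EID3. NFKBIZ, an NF-kappaB cofactor, also chosen after its values were seen, had 1.18 and -0.71, with opposite signs. Of all members, 322 had Dex differences below 0 in all 3 GFP pairs and above 0 in both P300 pairs, and 325 the reverse, together 647 or 10.0%.

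The receptor stood near the median, and the coactivators did so by the median of their list, while single coactivators such as EP300 lay far from it. NR3C1 was at 284, 192 and 275 CPM with EtOH and 256, 171 and 238 CPM with Dex in GFP cells, and at 171 and 107 CPM with EtOH and 159 and 113 CPM with Dex in P300 cells, and its interaction was 0.07 and 0.12. CREBBP had -0.03 and 0.47. EP300 had 0.14 and -2.76, beside the 13.4% and 2.42% shares above. Of 23 coactivators that are members, 10 were above the median in both numbers (43.5%) and 8 below (34.8%), beside 26.2% each way of all members. Their median interactions were 0.03 and 0.09, and NCOA3 had -0.10 and -0.89. Of 15 receptor and chaperone genes, 5 were above in both numbers (33.3%) and 4 below (26.7%).

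Among other pathways, transcripts encoded by mitochondria stood apart by count. All 15 listed are members, 0 were above and 11 below the median interaction in both numbers (73.3% beside 26.2%), with medians of -0.40 and -0.32. They come from shared polycistronic transcripts of 1 genome and are not independent. In the P300 libraries their share of counts was 3.46% in EtOH and 2.58% in Dex of number 1, and 4.36% and 3.63% in number 2, and in the GFP libraries 3.12% and 3.01%, and 3.92% and 3.83%. MT-ND4, a complex I subunit, was at 5173, 6587 and 5580.0 CPM with EtOH and 5372, 6183 and 5209 CPM with Dex in GFP cells, and at 5940.2 and 7936 CPM with EtOH and 4397 and 6526 CPM with Dex in P300 cells. Nuclear respiratory chain genes had 5 above and 12 below of 25, translation factors 3 and 10 of 19 and cytosolic ribosomal proteins 9 and 32 of 73.

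Several lists had opposite medians in the 2 numbers. The median interaction was -0.40 and 0.62 for 17 G2 and M phase genes, -0.26 and 0.63 for 19 S phase genes and -0.19 and 0.80 for 32 interferon-stimulated genes. TPX2, a spindle assembly factor, had -0.36 and 2.03, RRM2, a subunit of ribonucleotide reductase, -0.15 and 1.80, and MX1, an antiviral GTPase, -0.20 and 0.85. NRF2 targets had medians of 0.02 and 0.30. Of these 29 members, 12 were above in both numbers (41.4%) and 5 below (17.2%), beside 26.2% each way of all members. Of their iron storage members, FTH1 had 1.27 and 1.68, while FTL had opposite signs, -0.05 and 1.18. The Dex differences of FTH1, 0.70, -1.24 and 0.28 in GFP and 1.96 and 0.45 in P300 cells, overlapped between constructs. Its mean interaction of 1.47 ranged from 0.39 to 2.59 with 1 library left out. FTH1 also has many processed pseudogenes that can share its reads.

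Members far from the median in both numbers were few. Above 1 log2 unit in both were 20 members and below -1 in both were 14, while 5 and 8 passed 1 log2 unit in opposite directions. At 1.5-fold the counts were 175, 164, 105 and 134. LRSAM1, a ubiquitin ligase, was at 48.4, 51.6 and 52.0 CPM with EtOH and 41.5, 36.4 and 50.4 CPM with Dex in GFP cells, and at 13.2 and 16.7 CPM with EtOH and 26.4 and 60.4 CPM with Dex in P300 cells, with interactions of 1.24 and 2.23. NSMCE4A, a subunit of the SMC5/6 complex, had 1.15 and 2.29, and edgeR gave 1.77 ± 0.61 (SE), with an unadjusted p of 0.0161 and an adjusted p of 1. In the EtOH libraries of numbers 1 and 2 it was at 54.8 and 56.8 CPM in GFP cells. In P300 cells its EtOH levels were 13.2 and 11.4 CPM, the latter in the shallow library and near the 10 CPM limit. JAKMIP3 had 1.37 and 2.46, TSR3, a ribosomal RNA modification enzyme, 1.34 and 1.87 and NGFRAP1 1.25 and 1.21.

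On the low side, PAPSS2, which makes the sulfate donor PAPS, was at 22.7, 21.6 and 26.3 CPM with EtOH and 28.8, 24.5 and 28.9 CPM with Dex in GFP cells, and at 38.2 and 50.03 CPM with EtOH and 15.6 and 27.8 CPM with Dex in P300 cells. Its interaction was -1.61 and -1.17. SLC26A2, a sulfate transporter, had -1.28 and -1.39, IPMK, an inositol phosphate kinase, -1.51 and -1.30, and COX7B, a subunit of cytochrome c oxidase, -1.27 and -1.76. LSM5, of the U6 snRNP, had -1.22 and -1.73, RAB8B, a small GTPase, -1.18 and -1.84 and the long noncoding RNA OIP5-AS1 -1.16 and -1.55. The Dex difference of SLC26A2 was 1.01, 1.77 and 0.64 in GFP cells, so that it was higher with Dex there, while that of PAPSS2 was 0.35, 0.15 and 0.14. For COX7B it was -0.04, 1.15 and 0.03 in GFP cells, far above 0 in GFP pair 2 alone.

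Groups that do not overlap had shares near those of all genes. Both P300 pairs had a larger Dex difference than both GFP pairs of numbers 1 and 2 for 1238 members (19.2%) and a smaller one for 1261 (19.5%), beside 19.7% and 18.8% of all tested genes.

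The difference of each member between P300 and GFP cells in EtOH was also set beside its interaction. To keep the EtOH libraries apart, members were put into 5 equal classes by the difference of P300 from GFP in EtOH in one number, and the interaction was read in the other number. With classes from number 1, the median interaction in number 2 went from 0.52 in the class lowest in P300 to -0.50 in the highest. With classes from number 2, the interaction in number 1 went from -0.09 to 0.05. The relation thus had opposite directions in the 2 numbers.

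GC content moved with the interaction, above all in number 2. For the 6393 members with a GC value (99.0%), in 5 equal classes from lowest to highest, the median interaction went from -0.59 to 0.60 in number 2 and from -0.06 to 0.09 in number 1. Both constructs contributed: the median Dex difference went from 0.29 to -0.39 in GFP pair 2 and from -0.26 to 0.25 in P300 pair 2. The median GC content was 55.9% in the 175 members above 1.5-fold in both numbers and 41.8% in the 164 below, against 48.4% in all. With the median of 20 GC bins removed, an alternative chosen after seeing the data, 127 and 129 members passed 1.5-fold in the same direction and 110 and 143 in opposite ones, the share on the same side was 49.4%, and r was 0.01. So corrected, the mean interaction was -0.99 for SGK1 and 1.01 for FOSB, beside -1.26 and 1.24 without the correction. The part of GC content in the list counts above was not tested.

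**Figure D5:**
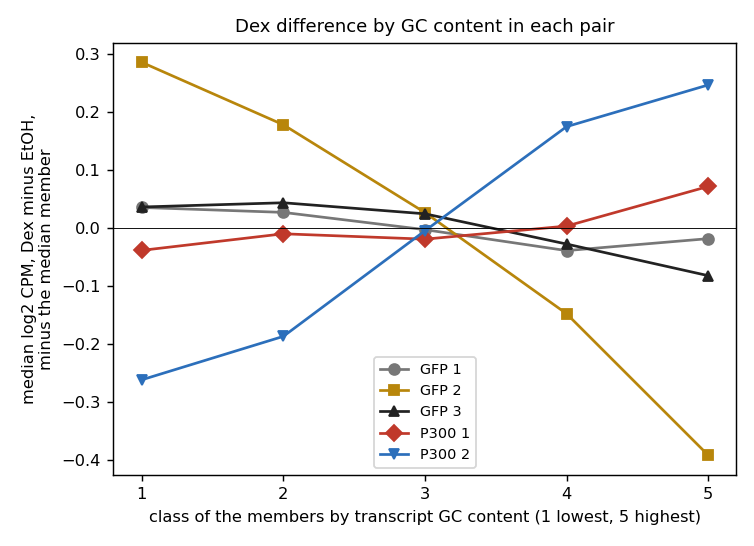
Median log2 CPM in Dex minus EtOH, minus the median member, in 5 equal classes of the members by transcript GC content (x axis, lowest to highest), for each pair of libraries. The line of GFP pair 2 goes from 0.29 down to -0.39 and that of P300 pair 2 from -0.26 up to 0.25, while the other 3 lie between -0.08 and 0.07.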

How the data were processed

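RNA-seq counts of 10 A549 libraries were used. Per the file headers, the authors deposited raw counts for each gene, which are whole numbers. The submitters' processing notes list GRCh37 and the tools Cutadapt, HTSeq 0.6.1p1, STAR 2.4.2a and DESeq2 1.10.1. Neither the annotation nor the strand setting is given in the sources used here, and reads of overlapping, antisense or near-identical genes may be mixed. A deposited block of 10 normalized columns was not used. The labels' protocols name 2 sets of library kits without saying which served which library.

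CPM are counts over the plain library total, with no pseudocount. The main test was the quasi-likelihood test of edgeR 4.0.16 (R 4.3.3) on the 8 libraries of numbers 1 and 2 (TMM, default expression filter, group as the only term), two-sided, with Benjamini-Hochberg adjustment over all genes tested and a threshold of 0.05. Alternatives were DESeq2 1.42.0, limma-voom (limma 3.58.1), other scalings, filters and libraries, and each library left out. The fit was also run on simulated counts with known large interactions and the same spread in all groups. The spread in these data differs between constructs, so that run does not show that interactions of the size described here would be called.

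Replicate numbers paired the libraries in part. Over all tested genes, deviations from the group means correlated at 0.163 to 0.600 in all 13 pairs with the same number. In 24 pairs of different numbers the range was -0.484 to 0.237. Over members the 2 ranges were 0.400 to 0.794 and -0.781 to 0.546, and the ranges overlap in both sets of genes. These deviations mirror each other in groups of 2 and are not independent.

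The members and gene lists were chosen with earlier results of these data known. Named genes are a selection from those the following rule gave: the 8 farthest from the median in each direction in both numbers, the 5 smallest p in each direction, the glucocorticoid-induced members and up to 4 of highest CPM per other list, EP300, CREBBP and NR3C1, and the 5 highest and lowest in GFP pair 3. Others are marked as named after their values were seen. GC content came from GENCODE transcripts matched by gene identifier, and promoter sequences from RefSeq (GRCh38.p14). The printed interval of the share on the same side treats members as independent and holds no spread between replicates.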

Additional observations from a re-analysis of the deposited data

Results flagged for a closer look

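For 10 of the genes named above, the Dex difference lay on one side of the median member in all 3 GFP pairs and on the other in both P300 pairs. The same was true of 647 members (10.0%), and the genes were named partly for such values, so the count of 10 carries no weight. edgeR's interaction test called none of them.

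FOSB, LIF and MAFK lay below the median member with Dex in GFP cells and above it in P300 cells, with mean interactions over the 2 numbers, relative to the median member, of 1.24, 1.20 and 1.48. LRSAM1 and JAKMIP3 had the same signs, with 1.74 and 1.91. GADD45B lay above the median member in GFP cells and below it in P300 cells, with a mean interaction of -0.75. PAPSS2, IPMK, LSM5 and RAB8B had the signs of GADD45B, with -1.39, -1.41, -1.47 and -1.51.

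With 1 library left out, the mean interaction ranged from 0.13 to 2.34 for FOSB, 0.86 to 1.53 for LIF, 1.02 to 1.93 for MAFK, 1.32 to 2.16 for LRSAM1 and 0.83 to 3.001 for JAKMIP3. It ranged from -1.03 to -0.46 for GADD45B, -1.62 to -1.15 for PAPSS2, -1.68 to -1.11 for IPMK, -2.15 to -0.80 for LSM5 and -2.26 to -0.75 for RAB8B. With GFP pair 3 as the reference, FOSB was at 0.69 and IPMK at -0.89. Leaving out a library breaks a pair, so differences in level between the numbers enter these values.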

How the results depend on the processing

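No member's interaction was called in any of the 20 fits run. With the replicate number as a block, 0 members were called in each of the 3 comparisons, with 118 members at an unadjusted p under 0.05 for the interaction; the block changed no call. DESeq2 called 2 of 6455 members when Dex was compared with EtOH in P300 cells. Without the P300 EtOH library of number 1, the P300 EtOH group keeps only the shallow library. That fit assumes this library to vary like the other groups, so its calls for Dex in P300 are not counted here. The median interaction over members before centring was 0.06, and it ranged from -0.13 to 0.23 with each library left out and was -0.03 with EP300 left out of the library sizes. The median of the glucocorticoid-induced members ranged from -0.24 to 0.18 with each library left out. The share of members on the same side in both numbers was 49.4% after removing GC bins and 49.7% with GFP pair 3 as the reference, both chosen after seeing the data. The causes were not tested. In number 2 the median interaction of the members higher or lower in GFP pair 3 turned to -0.02 and -0.18 with GC bins removed, and with a 2-fold limit, also chosen after seeing the data, it was 0.47 and 0.07; in number 1 the signs held under the 4 alternatives. Over 163 genes eligible to be named, the mean interaction changed sign for 21 with GC bins, 10 with GFP pair 3 as the reference and 56 without the P300 Dex library of number 2. With 2 P300 libraries per treatment, and 1 of them at 2278717 counts, precision is limited.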
